A study of Homo sapiens with 4 samples.

Results

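The AP-1 genes described here are 9 genes of the FOS family (FOS, FOSB, FOSL1 and FOSL2), the JUN family (JUN, JUNB and JUND) and the BATF family (BATF and BATF3). Membership follows the family names, and all 9 were among the 25277 gene symbols of the expression table. RNA sequencing had been carried out on Mino and Z138, established human cell lines derived from mantle cell lymphoma, a B cell cancer. Each line had been made stable for a doxycycline-inducible (tet-on) vector, either with a short hairpin against BTK (shBTK) or with the control vector labelled sc4, whose insert the labels do not describe. All cultures had been grown in medium with serum and had received doxycycline for 48 hours, the controls included. There was 1 library for each line and vector, 4 in all, so no replicate exists within a line, and the lines are the only replication. Expression is given as FPKM, fragments normalised to transcript length and to sequencing depth; the read depth behind the values is unknown.

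AP-1 is a dimer of basic leucine zipper (bZIP) proteins. FOS proteins do not pair with each other and bind DNA together with a JUN protein, whereas JUN proteins can also pair among themselves. BATF proteins have a bZIP domain but no activation domain of their own; they pair with JUN proteins and, in lymphocytes, bind composite sites together with IRF4 or IRF8. AP-1 dimers recognise the element TGACTCA (TRE) and the related cyclic AMP response element TGACGTCA (CRE). Many FOS and JUN genes are immediate early genes: ERK and JNK kinases switch them on within minutes through ELK factors, SRF and JUN itself. In B cells the antigen receptor reaches these kinases through BTK and phospholipase C, which is the question a BTK knockdown puts to these genes.

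The target of the hairpin was examined first. BTK measured 37.0 FPKM in control and 9.84 in hairpin Mino cells, against 51.0 and 12.4 in Z138 cells. It fell by 1.88 on the log2 scale across the lines (SE 0.13, adjusted p = 0.000964 in limma). Summed FPKM per library was between 669013 and 740192. Of the B cell genes, CD79A was at 557 to 744 FPKM over the 4 libraries, CD79B at 271 to 411, MS4A1 at 43.5 to 113 and PAX5 at 14.5 to 22.9. CD22 measured 107 and 102 FPKM for Mino against 3.34 and 5.96 for Z138. The mantle cell lymphoma marker SOX11 was at 19.8 to 23.6 FPKM. The cyclin gene CCND1, the gene activated by the translocation typical of this lymphoma, was at 591 and 600 FPKM in the Z138 libraries but at 3.18 and 2.62 in the Mino libraries. The Mino values go against what is usual for this lymphoma. What lies behind them was not tested, and every difference between the lines given here is between the libraries so labelled. The 4 T cell markers summed to 0.161 and 0.344 FPKM in Mino and to 4.53 and 4.65 FPKM in Z138. In Z138 CD3G was at 2.71 and 2.48 FPKM and CD3E at 1.69 and 2.07, while CD2 was listed at 0 in every library. The 4 myeloid markers summed to between 0.147 and 0.482 FPKM. The epithelial and fibroblast genes EPCAM, COL1A1 and COL1A2 summed to 11.9 and 11.2 FPKM in Mino, EPCAM being at 7.29 and 7.56, and to 0.927 and 0.679 FPKM in Z138. The part of these genes and of the T cell genes in the differences between the lines was not tested. In bulk RNA, fewer cells with a transcript and less of it per cell cannot be told apart.

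Levels of the 9 genes were compared first, since FPKM is per length and genes of a library can be set side by side. JUNB and JUND were high in all 4 libraries, the FOS genes were low in all 4, and JUN and BATF were higher in Mino than in Z138. JUN was above 63.1% and 43.0% of the tested symbols for Mino (control, then hairpin) and above 5.13% and 6.32% for Z138. In control and hairpin cells, in that order here and below, BATF measured 126 and 99.5 FPKM for Mino, above 94.9% and 93.5% of the symbols tested, and 4.72 and 3.30 FPKM for Z138. It was the most abundant AP-1 transcript in Mino. JUND, the JUN protein gene usually expressed without stimulation, measured 76.8 and 57.99 FPKM for Mino against 46.7 and 43.1 for Z138. JUNB, which can restrain JUN and is also induced early, measured 48.1 and 34.1 FPKM for Mino against 40.3 and 42.1 for Z138. The Mino control was thus the highest library for both genes, and the ranges of the lines overlapped for JUNB. JUN, the founding member of its family, measured 16.9 and 8.40 FPKM for Mino against 0.384 and 0.586 for Z138. Both Z138 values of JUN were under 1 FPKM.

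The FOS family was led by FOS with 4.36 and 2.29 FPKM for Mino against 3.09 and 2.24 for Z138. FOS codes for the classical partner of JUN, and its ranges in the lines overlapped. FOSB, a FOS relative induced with it, measured 3.54 and 2.06 FPKM for Mino against 0.461 and 0.319 for Z138. FOSL2, which codes for the FOS relative FRA2, measured 1.06 and 0.603 FPKM for Mino against 0.923 and 0.925 for Z138, so that both Z138 values lay between the Mino values. FOSL1, which codes for FRA1, was the lowest of the 9 in every library, at 0.168 to 0.272 FPKM. BATF3, which pairs with JUN proteins as BATF does, measured 1.19 and 1.67 FPKM for Mino against 0.343 and 0.989 for Z138. Its higher library in each line was the hairpin library.

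In Mino the order of levels was the same in both libraries: BATF, JUND, JUNB, JUN, FOS, FOSB, BATF3, FOSL2 and FOSL1. The ranges of FOS and FOSB in Mino overlapped, so their order is not beyond the difference between the libraries of that line. In both Z138 libraries JUND, JUNB, BATF and FOS led in that order. Below them the order of FOSL2, FOSB, JUN and BATF3 differed between the Z138 libraries, all at under 1 FPKM.

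**Figure D1:**
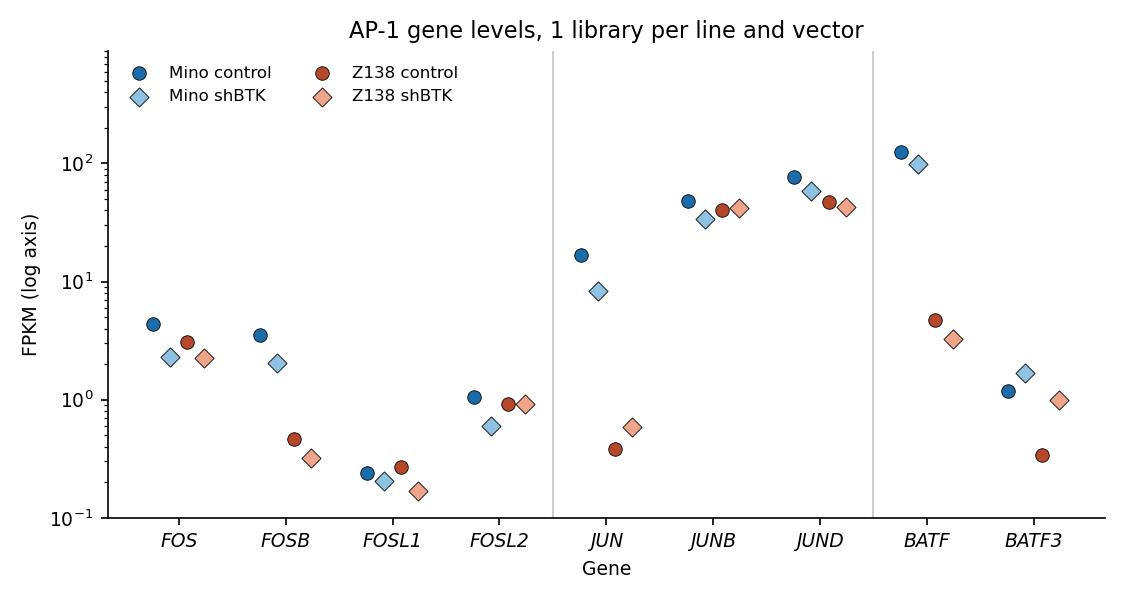
FPKM (log axis) of the 9 AP-1 genes; each point is 1 library, circles are control and diamonds hairpin libraries, blue is Mino and red Z138. JUN and BATF are far apart between the lines, whereas JUNB and JUND lie between 34.1 and 76.8 FPKM in all 4 libraries.

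The families were then added up within each library. The 9 genes summed to 278 and 207 FPKM for Mino and to 97.3 and 93.8 FPKM for Z138. BATF genes made up 45.7% and 48.9% of these sums in Mino but 5.204% and 4.57% in Z138. JUN genes made up 51.0% and 48.6% in Mino and 89.9% and 91.5% in Z138. FOS genes stayed between 2.49% and 4.88% of the sum in the 4 libraries. In the Mino control the BATF sum was 127 FPKM beside a FOS sum of 9.19 FPKM, and in the Z138 control the sums were 5.06 and 4.74 FPKM. Without the most abundant gene of each family (FOS, JUND and BATF), BATF3 alone is left of the BATF family. The BATF share was then 3.56% or less in every library, so it rests on BATF itself. That follows from the levels given above and is no separate check.

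**Figure D2:**
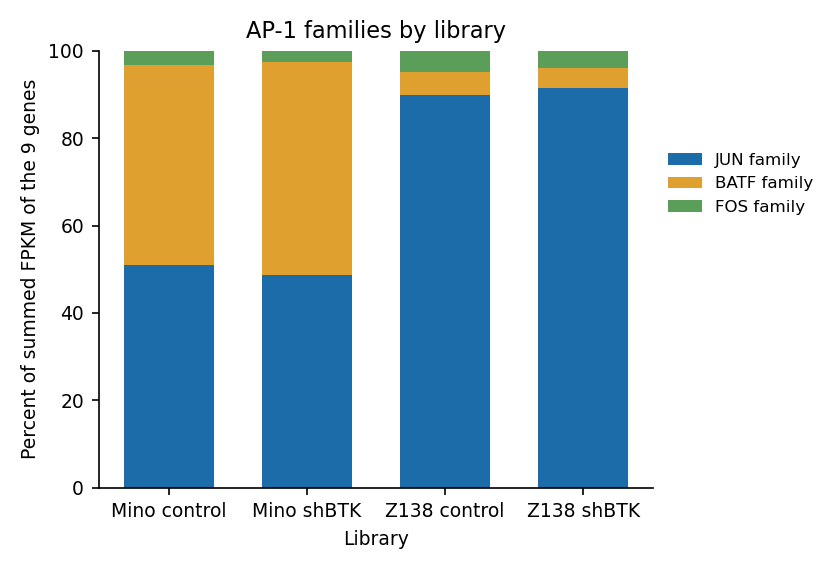
Percent of the summed FPKM of the 9 AP-1 genes that belongs to the JUN, BATF and FOS families, 1 bar per library. The BATF family takes 45.7% and 48.9% in the Mino libraries and 5.204% and 4.57% in the Z138 libraries.

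Start-site sequences are shown for the genes on which the results turn: JUN and BATF, which differed most between the lines, FOS, the most abundant of its family in every library, and JUND, the only one of these with a full CRE. RefSeq windows (GRCh38.p14) reaching from 250 bases before to 50 bases after the start were matched for 7 of the 9 genes, those of FOSL1 and BATF3 excepted. Both strands were searched for the TRE (TGACTCA), the CRE (TGACGTCA), the first 6 bases of the CRE (TGACGT), the form TGACNTCA, and the CArG box bound by SRF. TGACGT and TGACNTCA were added after the sequences had been seen, and both overlap the CRE. The 250 bases before each start follow, 5′ to 3′ on the strand of the gene, with every match in capitals.
JUN, chr1:58784048-58784297, minus strand: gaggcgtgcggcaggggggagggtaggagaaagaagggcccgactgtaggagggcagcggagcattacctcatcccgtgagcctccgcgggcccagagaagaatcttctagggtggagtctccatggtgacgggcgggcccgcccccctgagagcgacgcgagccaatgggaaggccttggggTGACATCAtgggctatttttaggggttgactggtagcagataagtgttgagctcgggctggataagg
FOS, chr14:75278578-75278827, plus strand: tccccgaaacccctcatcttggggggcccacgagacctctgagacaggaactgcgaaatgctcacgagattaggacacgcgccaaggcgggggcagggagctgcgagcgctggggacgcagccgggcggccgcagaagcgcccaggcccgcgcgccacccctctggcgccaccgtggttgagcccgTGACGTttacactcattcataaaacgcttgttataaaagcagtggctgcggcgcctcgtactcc
JUND, chr19:18281623-18281872, minus strand: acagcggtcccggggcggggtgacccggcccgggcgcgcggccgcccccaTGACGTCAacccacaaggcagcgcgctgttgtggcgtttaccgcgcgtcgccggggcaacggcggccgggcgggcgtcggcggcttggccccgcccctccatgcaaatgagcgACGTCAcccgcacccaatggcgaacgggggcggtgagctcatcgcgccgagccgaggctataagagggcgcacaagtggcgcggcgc
BATF, chr14:75522219-75522468, plus strand: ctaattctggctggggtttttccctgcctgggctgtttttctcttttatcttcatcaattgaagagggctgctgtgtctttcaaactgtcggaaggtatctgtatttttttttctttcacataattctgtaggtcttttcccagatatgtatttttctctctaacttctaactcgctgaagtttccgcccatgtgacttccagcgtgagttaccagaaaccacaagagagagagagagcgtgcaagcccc

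JUN held TGACATCA, a match to TGACNTCA, with its first base 67 bases before the start; 7.72% of the 35116 RefSeq windows of this length hold that form. FOS held TGACGT 64 bases before the start, FOSL2 66 and FOSB 60 bases before it, and 7.98% of windows hold TGACGT. JUND held a full CRE 200 bases before the start, which 1.85% of windows hold, and a second ACGTCA 87 bases before it. The BATF and JUNB windows held none of the 5 forms. FOSL2 alone held a TRE, its first base at position 5 of the transcript, as 4.95% of windows do; the stretch around it is shown because it is the only TRE among the 7 windows.
FOSL2, chr2:28392852-28392878, plus strand: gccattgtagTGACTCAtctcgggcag
No window held a CArG box, which is in 1.29% of all windows. Sequence beyond the windows was not searched, so a CArG box further from the start of FOS or another gene would have been missed. These matches describe letters in the windows and were not tested as sites.

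The largest differences among the 9 genes were those between the lines. Z138 was compared with Mino in a limma model on log2(FPKM + 1) with line and vector as terms. The 2 libraries of a line were its control and its hairpin library, so SE and p-values measure no spread between cultures of a line. The fit covered the 11484 symbols whose mean reached 1 FPKM. Of the 9 genes, 7 passed this filter; FOSL2, with a mean of 0.877 FPKM, lay just below it and BATF3, with 1.05, just above, and FOSL1 was at 0.221. JUN, FOSB and BATF3 passed the filter only through Mino, where they were higher. Genes that enter in this way had to differ, so the count that follows and the values of these 3 genes are descriptions, without a test. The lines differ widely: 67.4% of the tested symbols passed at an adjusted p under 0.05, 38.8% as lower in Z138. Of the 7 AP-1 genes, 5 passed, all lower in Z138, and 0 passed as higher, as 28.7% of the tested symbols did.

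BATF was 26.6 times as high in the Mino as in the Z138 control library and 30.2 times as high in the hairpin libraries, by FPKM. Its difference, Z138 minus Mino, was −4.51 on the log2(FPKM + 1) scale (SE 0.13, adjusted p = 1.62e-07 in limma). JUN was 44.1 times as high in the Mino control and 14.3 times as high in the Mino hairpin library, with a difference of −3.13 (SE 0.24). The Z138 values of JUN were under 1 FPKM, so these ratios of FPKM rest on low values. FOSB differed by −1.42 (SE 0.15), again against values under 1 FPKM in Z138. BATF and JUND passed in every setting in which they were fitted. JUN and FOSB did so too, which is a description because of the filter. In the setting with a mean of at least 5 FPKM, BATF also entered only through Mino.

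JUND differed by −0.56 (SE 0.13, adjusted p = 0.00517 in limma) and BATF3 by −0.57 (SE 0.14). These smaller differences stand beside a median of −0.12 over all tested symbols, a median that quantile normalization moved by 0.17 to 0.05. Relative to the median, JUND was at −0.44 and BATF3 at −0.45. With quantile normalization JUND still passed (−0.48, adjusted p = 0.0152 in limma) and BATF3 was at −0.05. The share of passing symbols that were lower in Z138 was 57.5% as deposited and 46.9% with quantile normalization. FOS (−0.21, SE 0.15, adjusted p = 0.255 in limma) and JUNB (0.02, SE 0.15, adjusted p = 0.895) did not pass, and FOS was at 0.11 with quantile normalization.

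**Figure D3:**
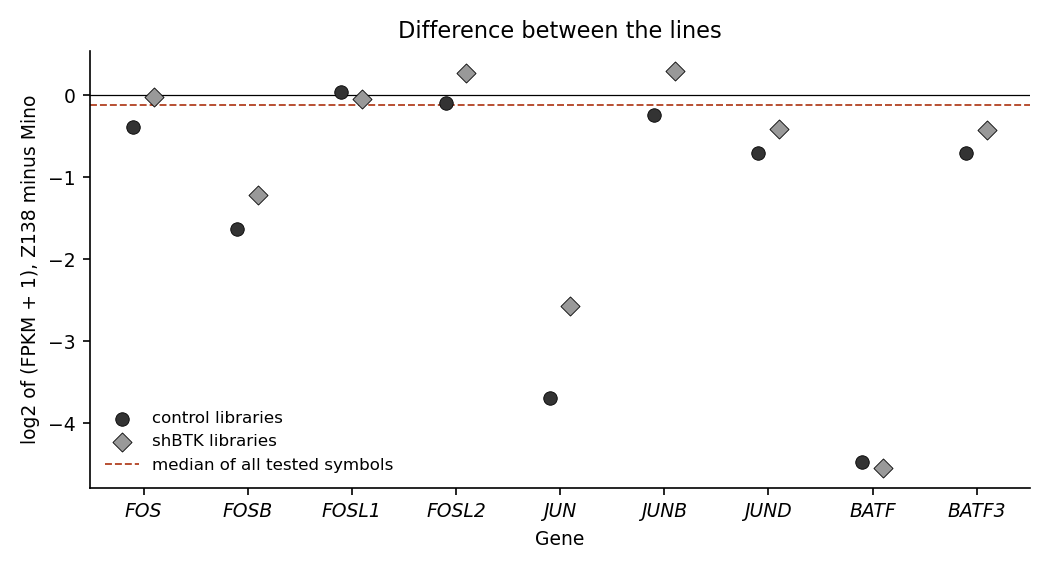
Difference of log2(FPKM + 1), Z138 minus Mino, for each AP-1 gene, taken between the control libraries (circles) and between the hairpin libraries (diamonds); the dashed line is the median of all tested symbols, −0.12. BATF is at −4.47 and −4.55 and JUN at −3.69 and −2.57, below every other gene of the 9.

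The comparison of hairpin with control asked how these genes stood after BTK knockdown. No AP-1 gene passed the test across the lines. In Mino 8 of the 9 genes had a lower value in the hairpin library, and in Z138 5 of 9 did, where 51.9% and 43.7% of the tested symbols were below 0. FOS, FOSB, FOSL1, JUND and BATF were below 0 in both lines, as 19.4% of the tested symbols were. BATF3 alone was above 0 in both, as 23.1% were.

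FOS in the hairpin library was at 52.5% of the control FPKM in Mino and at 72.4% in Z138. Its log2 ratios on the FPKM + 1 scale were −0.70 and −0.34, and its mean over the lines was −0.52 (SE 0.15, adjusted p = 1.00 in limma). Over all settings the lowest adjusted p of FOS was 0.383 in limma, reached without symbols listed at 0 in a library, and that was the lowest of any of the 9 genes. FOSB was at 58.1% of control in Mino and 69.0% in Z138, with log2 ratios of −0.57 and −0.15. FOSL2 was at 57.0% of control in Mino and 100.3% in Z138, and FOSL1 at 85.9% and 61.9%, the latter at levels where the deposited FPKM give no precision. Summed over the FOS family, the hairpin library held 56.1% of the control FPKM in Mino and 76.9% in Z138.

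In the JUN family the ratios of JUN and JUNB differed in sign between the lines, and that of JUND was below 0 in both. JUN stood at 49.7% of control in Mino, with a log2 ratio of −0.93, the lowest of the 9 genes there. In Z138 it went from 0.384 to 0.586 FPKM, a log2 ratio of 0.20. JUNB had log2 ratios of −0.48 and 0.06. JUND had −0.40 and −0.11. JUN, JUNB and, outside this family, FOSL2 were the 3 of 9 genes lower in Mino and higher in Z138, as 32.1% of the tested symbols were; 56.2% had ratios of opposite sign in either order. The means over the lines were −0.37 for JUN (SE 0.24), −0.21 for JUNB (SE 0.15) and −0.26 for JUND (SE 0.13), each with adjusted p = 1.00 in limma. The JUN family sum in the hairpin library was 70.9% of control in Mino and 98.2% in Z138. JUNB shares exon sequence with HOOK2 on the opposite strand in GENCODE 29. HOOK2 was at 3.64 to 6.25 FPKM, and the sources used here do not give whether reads were counted by strand.

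The 2 BATF genes had ratios of opposite sign to each other. BATF was at 79.1% of control in Mino and 69.8% in Z138, with log2 ratios of −0.33 and −0.41 and a mean of −0.37 (SE 0.13, adjusted p = 1.00 in limma). The hairpin library was lower than the control in both lines, and the ratios differed by less between the lines than those of any other tested member. BATF3 was at 140% of control in Mino and 288% in Z138, with log2 ratios of 0.29 and 0.57 and a mean of 0.43 (SE 0.14). It reached the filter's mean of 1 FPKM only through its hairpin libraries, so these values are a description, without a test.

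**Figure D4:**
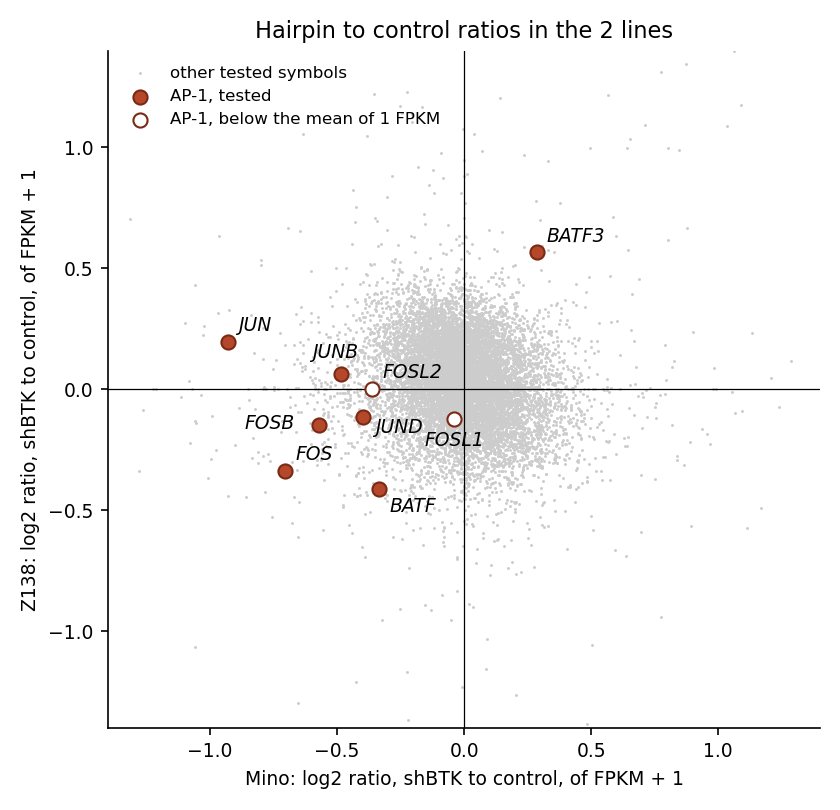
Log2 ratio of hairpin to control on the FPKM + 1 scale in Mino (horizontal) against Z138 (vertical); grey points are the tested symbols, 84 of them outside the axes, and red points the AP-1 genes, open where the mean was under 1 FPKM. FOS and BATF lie below 0 on both axes, JUN at −0.93 and 0.20, and BATF3 above 0 on both.

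By size alone, FOS and JUN were at least 1.5-fold lower in the Mino hairpin library on the FPKM + 1 scale, as 1.24% of the tested symbols were. FOSB lay just short of that size. None of the 9 genes reached 1.5-fold in Z138 on this scale, where 0.819% of the tested symbols were that much lower and 0.94% that much higher. BATF3 lay just short of it at 0.57 and was past it, on the higher side, with pseudocounts of 0.5 (0.82) and 0.1 FPKM (1.30). Over the 7 tested genes the median of the log2 ratios was −0.48 for Mino and −0.11 for Z138, beside −0.01 and 0.03 over all tested symbols. In the test across the lines 0 of these 7 passed in limma, where 0.122% of the tested symbols (14 of 11484) did. The split of those 14 was 7 higher and 7 lower (0.061% each); with the libraries scaled to the same median it was 15 and 8, and with quantile normalization 1 and 6. An unadjusted p under 0.05 was reached by 4 of the 7 genes, FOS, FOSB and BATF on the lower side and BATF3 on the higher side, and by 2.79% of all tested symbols, 1.69% on the lower side. With a single pair of libraries per line, no test of a difference in response between them was run.

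Base composition moved with the Z138 ratios. Across 10477 tested symbols above 0 in every library, the ratio had a Spearman rho with transcript GC content of −0.57 in Z138 and 0.11 in Mino; these are relations across genes that share the same 2 libraries. Transcripts of the 9 genes held 45.6% (BATF3) to 69.7% (JUND) GC, against a median of 48.7% among the tested symbols. After trends on GC content and length were removed, the Z138 ratio of JUND was 0.01, that of FOSB −0.08, JUNB 0.16 and JUN 0.27. FOS (−0.27) and BATF (−0.38) remained below 0 in Z138. BATF3 remained above 0 in both lines, at 0.28 in Mino and 0.53 in Z138. In Mino the corrected ratios were −0.73 for FOS, −0.60 for FOSB, −0.96 for JUN, −0.51 for JUNB, −0.41 for JUND and −0.36 for BATF.

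Genes around AP-1 were followed in lists of upstream, partner and target genes. In no list did a member pass between hairpin and control. Among 16 tested members of the other early response genes, many of which answer to the same kinases, 16 were below 0 in Mino. In Z138 15 were, so 15 were below 0 in both lines, where 19.4% of the tested symbols were. EGR1 was the exception, with log2 ratios of −0.57 and 0.24. Some Z138 ratios were near 0, as for BTG2 (−0.005) and KLF2 (−0.02). These ratios are without the GC and length correction, and the share of 19.4% is not matched for GC content. The medians of this list were −0.40 and −0.15. The phosphatase gene DUSP2 had log2 ratios of −0.43 and −0.43, and the nuclear receptor gene NR4A1 −0.43 and −1.21 (adjusted p = 0.703 in limma). The kinases and nuclear factors upstream of FOS and JUN had medians of −0.03 and 0.08 over 22 tested genes. SRF itself measured 14.3 and 11.98 FPKM for Mino against 16.8 and 14.8 for Z138, with log2 ratios of −0.24 and −0.17. MEF2D had −0.18 and −0.25, while MAP2K4, the gene of a kinase that activates JNK, had 0.07 and 0.10 and ELK4 0.07 and 0.18.

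Of the other bZIP factors, 30 of 36 were tested, with medians of 0.00 in Mino and −0.01 in Z138. The stress-induced factors DDIT3 (0.43 and 0.21) and ATF3 (0.44 and 0.18) had log2 ratios above 0 in both lines, and ATF5 (−0.10 and −0.35) and the clock-controlled factor DBP (−0.20 and −0.06) below. Of 21 textbook AP-1 targets 20 were in the table and 11 were tested, with medians of −0.10 and 0.02. Of these 11, 2 were below 0 in both lines, where 19.4% of all tested symbols were. They were GSTP1 (−0.10 and −0.23) and the adhesion receptor gene CD44 (−0.59 and −0.02). CD44 measured 106 and 70.03 FPKM for Mino against 0.0437 and 0.0258 for Z138, so the sign of its Z138 ratio rests on values near 0. Of 6 BATF partners and targets 3 were tested, with medians of −0.08 and 0.08; the partner genes IRF8 (0.14 and 0.31) and IRF4 (−0.08 and −0.13) had ratios of opposite sign to each other. Among 6 genes of FOS and JUN protein turnover the medians were −0.05 and 0.08, and the ubiquitin ligase scaffold gene CUL4A had 0.11 and 0.21.

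Heat shock genes had low ratios in Mino as well. The 4 tested members, DNAJB1, HSPA8, HSPH1 and HSP90AA1, were below 0 in Mino, as 51.9% of the tested symbols were, with a median of −0.79. Of them, 3 were at least 1.5-fold lower there, as 1.24% of the tested symbols were. In Z138 their median was 0.14. DNAJB1, a co-chaperone, measured 197 and 81.5 FPKM for Mino against 29.04 and 27.3 for Z138. HSPA1A was listed at 0 in every library. The part of these genes' difference between the Mino cultures in the AP-1 ratios was not tested.

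**Figure D5:**
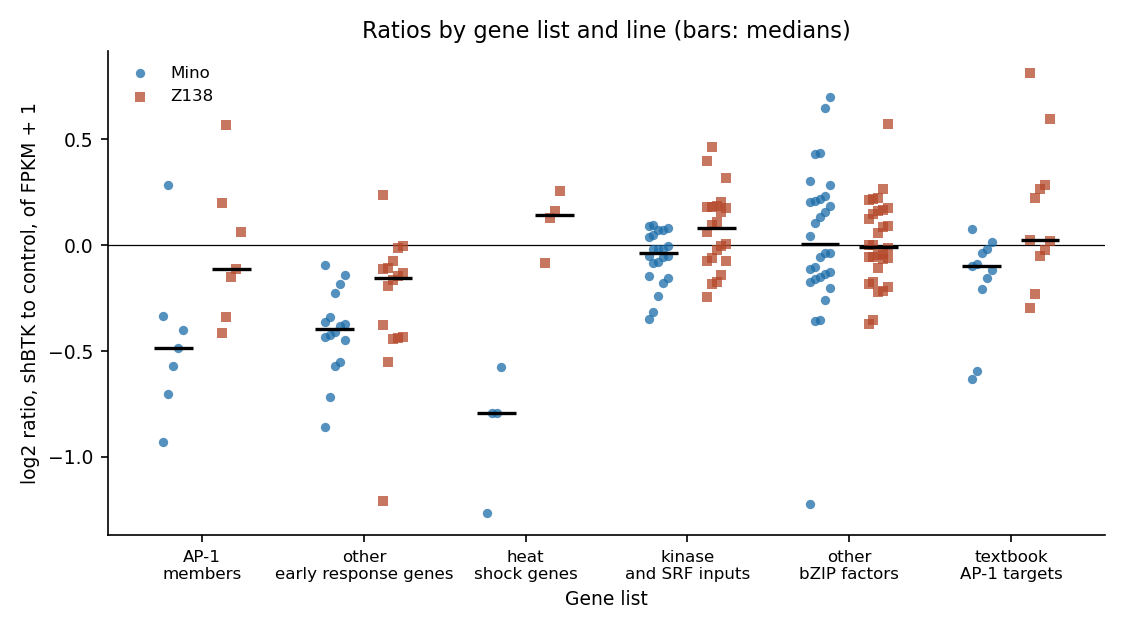
Log2 ratios of hairpin to control on the FPKM + 1 scale for tested members of 6 gene lists, with Mino as blue circles and Z138 as red squares; black bars are medians. AP-1, early response and heat shock medians are −0.48, −0.40 and −0.79 in Mino, and −0.11, −0.15 and 0.14 in Z138.

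Genes with the most similar profile over the 4 libraries were named by the distance between mean-centred log2(FPKM + 1) values, among 7904 symbols whose mean reached 5 FPKM. For JUN these were NRN1 (distance 0.26), P4HA2 (0.27) and PDLIM2 (0.32). NRN1 measured 14.03 and 6.24 FPKM for Mino against 0.313 and 0.193 for Z138. For BATF they were GAREML (0.22), APOE (0.23) and LFNG (0.26), all high in Mino and at 2.09 FPKM or less in Z138. JUND lay nearest to ZNF395 (0.10), NDUFC1 (0.10) and YWHAH (0.10), and JUNB to the readthrough symbol RPL36A-HNRNPH2 (0.09), PET117 (0.11) and DPCD (0.12). Profiles over 4 libraries of 2 lines are short, and many genes lie close to any of them.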

How the data were processed

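Per the labels' protocols, RNA came from a Qiagen column kit and the libraries from a TruSeq RNA kit. The authors deposited 1 table of FPKM values, 1 column per library, per the file headers. TopHat and hg19 are named in the submitters' processing notes; these sources do not name the program behind the FPKM values, nor an annotation or filter. FPKM are not counts and the depth is unknown, so no counting interval is given, and an exact 0 can be a failed estimate. Values were analysed as log2(FPKM + 1), which understates changes of low genes. The test was limma 3.58.1 in R 4.3.3 (line and vector as additive terms, mean-variance trend, Benjamini-Hochberg adjusted p under 0.05 over the 11484 symbols whose mean reached 1 FPKM). It leaves 1 residual degree of freedom per symbol, so the spread is largely pooled over symbols. The p-values of hairpin against control measure how alike the 2 lines responded. Those between the lines rest on the same residual and measure no spread between cultures of a line. The line is the block that pairs a hairpin library with its control. Within a line, ratios are given without a test.

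The 9 genes and the gene lists were chosen with earlier results of these data known. From each list the 2 highest and 2 lowest genes by the smaller of the 2 ratios were named (same sign in both lines, mean of at least 5 FPKM). GC content and length came from the longest GENCODE 29 transcript, available for 93.9% of tested symbols. Each library's spline trends on them were removed in the corrected setting. Alternatives were other pseudocounts, filters, scalings, that correction, no trend and no line term.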

Additional observations from a re-analysis of the deposited data

Results flagged for a closer look

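The hairpin to control ratio was below 0 in Mino and above 0 in Z138 for 3 of the 9 genes. For JUN the log2 ratios were −0.93 and 0.20, a difference of 1.13. For JUNB they were −0.48 and 0.06, a difference of 0.55, and for FOSL2 −0.36 and 0.00, a difference of 0.36. These differences were not tested, there being a single pair of libraries per line, and 32.1% of all tested symbols were lower in Mino and higher in Z138, a share close to 3 of 9. The Z138 values of FOSL2 were 0.923 and 0.925 FPKM. JUN in Z138 and FOSL2 in both lines were near or under 1 FPKM.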

How the results depend on the processing

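Between hairpin and control, 0 of the AP-1 genes fitted passed in limma in the reported setting and in each of 10 alternatives, including the fit with no replicate block (the line term left out), where 0 passed too; directions of the means over the lines were the same in all of them. Between the lines, 5 of the tested genes passed as reported, where 67.4% of all tested symbols did. At a mean of at least 5 FPKM it was 3 of the 4 that remain, beside 3038 lower and 2402 higher of 8171 symbols. JUN and BATF reached that mean only through Mino (Z138 means of 0.485 and 4.01 FPKM), as JUN, FOSB and BATF3 did 1 FPKM. Both counts are descriptions. With quantile normalization FOS turned to 0.11 and BATF3 no longer passed. BTK did not pass without the filter on low values (adjusted p = 0.101 in limma) or without the line term (adjusted p = 1.00). At 1.5-fold in Mino, 2 genes were lower as reported and FOSB joined them with a pseudocount of 0.1 FPKM (−0.76) and with the GC and length correction (−0.60). Without the highest gene of each family, which leaves BATF3 alone in its family, the BATF share was 1.68% (control) and 3.56% (hairpin) for Mino. For Z138 it was 0.803% and 2.19%. Leaving out a library leaves no residual degrees of freedom, so the ratios of each line stand side by side instead. Depth is unknown, so the precision of FOSL1, FOSL2 and BATF3, and of JUN and FOSB in Z138, cannot be given.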

Other observations

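BATF binds composite sites with IRF4 or IRF8, and the levels of these partners and of another JUN partner are set beside it here. These genes were picked after their values were seen, so their values are descriptions, without a test. In control and hairpin cells IRF4 measured 121 and 114 FPKM for Mino against 135 and 123 for Z138. Its difference, Z138 minus Mino, was 0.13 (SE 0.12). IRF8 measured 115 and 126 FPKM for Mino against 6.85 and 8.75 for Z138, a difference of −3.79 (SE 0.13). JDP2, a bZIP repressor that pairs with JUN proteins, measured 13.5 and 15.7 FPKM for Mino against 1.83 and 1.63 for Z138. Its difference was −2.51 (SE 0.15). Of the 30 tested other bZIP factors, 12 passed as lower and 8 as higher in Z138, where 38.8% and 28.7% of all tested symbols did.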
